A study of Mus musculus with 3 samples.

Results

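The 30 genes described here encode the Fanconi anaemia proteins and other core factors of DNA repair, and they were chosen by name for their role in repair, with earlier results of these data known, out of 21887 protein-coding genes with a record on chromosomes 1 to 19, X and Y. H3K9ac, acetylation of lysine 9 of histone H3, is a mark of active promoters. It was mapped by CUT&Tag, in which an antibody tethers a transposase that cuts and tags the DNA beside the mark, in haematopoietic stem cells (HSCs) sorted from the bone marrow of wild-type mice. There were 3 libraries of 50000 cells each, 1 per group: young HSC (2 to 4 months), old HSC (18 to 24 months) and old HSC ABC (18 to 24 months), where the labels do not say what ABC stands for or how many animals were used. The files hold summits, which are the 1 bp positions of the highest signal in each called peak, with a score that ranks summits inside their own list. The peak names go against the labels: they name old HSC in the young-labelled list, old HSC ABC in the old-labelled list and old HSC again in the ABC-labelled list, so that by these names no list is a young one. Libraries are called by their label below, and where 3 values stand together they are in the order young-labelled, old-labelled, ABC-labelled. With 1 library per group there is no replicate check on any difference and no test was run.

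The lists held 33248, 108787 and 45386 summits. Read depth was unknown. A longer list marks more genes, so counts are also given for equal-length lists, made of the 33248 highest-scoring summits of each. Of 12 HSC marker genes, 9, 11 and 8 had a summit within 1 kb of a record end in the 3 lists, and Mecom had none there in any list. The nearest to an end of Mecom were 1481, 1493 and 1406 bp away, and its record held 5, 23 and 10 summits. Of 8 neutrophil and monocyte genes 5, 8 and 5 had a summit within 1 kb of a record end, or 5, 8 and 4 in equal-length lists. Retnlg and Elane had one there in the old-labelled list alone. The counts were 1, 2 and 2 of 6 erythroid genes, 1, 2 and 1 of 6 B cell genes, 1, 3 and 2 of 6 T and NK cell genes and 2, 4 and 1 of 6 genes of other tissues, with none at the globin genes Hba-a1 and Hbb-bt or at Cd79a. In equal-length lists the same marker lists had 1, 1 and 2 erythroid, 1, 2 and 1 B cell, 1, 2 and 1 T and NK cell, 2, 2 and 1 other tissue and 9, 9 and 8 HSC genes. The part of other cell types in the differences between lists was not tested.

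Fanconi proteins act on DNA crosslinks. A core complex with the ubiquitin ligase subunit FANCL, brought to DNA by FANCM, ubiquitinates the FANCD2 and FANCI pair, after which nucleases unhook the crosslink and homologous recombination repairs the resulting break. Loss of this pathway in humans causes Fanconi anaemia, a bone marrow failure in which HSCs are lost. The other genes of the set cover the kinases that signal damage, the sensor of broken ends, non-homologous end joining, single-strand break repair and mismatch repair.

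Many of these genes begin next to another gene, so promoter DNA is shown of 2 kinds, with and without a close neighbour. Of the 9 stretches, those of Chek1 and Fanci hold a summit in every list and that of Palb2 holds one in the ABC-labelled list, while the summits of the other 6 genes lie outside the bases printed. All sequences are RefSeq sequences of GRCm38.p6, written 5′ to 3′ on the strand of the repair gene, in lower case with motif matches in capitals. Base 0 is the listed start of the gene. The motifs searched on both strands were TTCCCGC and, as a further form, TTGGCGC for E2F factors, TTTGAA for the CHR element, CCAAT for the CCAAT box, CCGGAA for ETS factors, GGGCGG for the SP1 box, GCATGCGC for NRF1 and TATAAA for the TATA box. A match is a run of letters and not a site shown to be bound.

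The first set is the 250 bases before the start of 4 genes that have no other protein-coding record there. Chek1 is shown because all 3 lists put a summit inside these bases, Fance and Fancl because their summits fall just after the start, and Msh6 because its summits differ in position between the lists. Their spans are chr9:36726659-36726908 (minus strand), chr17:28313280-28313529 (plus), chr11:26386834-26387083 (plus) and chr17:87974800-87975049 (plus).
Chek1: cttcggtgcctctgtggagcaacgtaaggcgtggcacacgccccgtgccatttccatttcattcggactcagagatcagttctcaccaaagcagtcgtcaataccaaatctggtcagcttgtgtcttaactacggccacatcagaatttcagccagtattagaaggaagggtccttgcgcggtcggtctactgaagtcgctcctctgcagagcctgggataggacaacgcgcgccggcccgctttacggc
Fance: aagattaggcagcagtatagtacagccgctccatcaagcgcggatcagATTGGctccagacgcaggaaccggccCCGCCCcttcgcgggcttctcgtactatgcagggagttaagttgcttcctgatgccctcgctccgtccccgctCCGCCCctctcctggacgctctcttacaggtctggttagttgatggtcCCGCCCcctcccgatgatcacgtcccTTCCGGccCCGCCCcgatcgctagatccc
Fancl: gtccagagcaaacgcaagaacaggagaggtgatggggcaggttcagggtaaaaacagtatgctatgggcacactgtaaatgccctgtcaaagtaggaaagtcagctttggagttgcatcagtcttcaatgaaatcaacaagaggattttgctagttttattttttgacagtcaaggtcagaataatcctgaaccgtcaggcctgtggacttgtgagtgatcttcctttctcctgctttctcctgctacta
Msh6: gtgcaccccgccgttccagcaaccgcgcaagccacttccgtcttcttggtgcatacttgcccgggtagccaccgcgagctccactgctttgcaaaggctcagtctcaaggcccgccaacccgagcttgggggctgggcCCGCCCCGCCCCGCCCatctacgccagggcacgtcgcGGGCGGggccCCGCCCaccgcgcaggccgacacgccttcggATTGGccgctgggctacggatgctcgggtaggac
The bases of Msh6 were 70.8% G or C with 27 CpG, those of Fance 62.4% with 21, those of Chek1 55.2% with 18 and those of Fancl 44.4% with only 2. Fance and Msh6 each held 6 matches, of which 4 and 5 were SP1 boxes (3 of those of Msh6 overlap) and the next was a CCAAT box in each, and Fance also had an ETS match 29 bases before its start. Chek1 and Fancl held none of the motifs in these bases.

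The second set is the DNA between the record of a repair gene and that of its neighbour, shown because a summit there cannot be given to either gene. The spans are chr11:101551956-101552106 between Brca1 and Nbr1 (minus strand), chr9:53536829-53536888 between Atm and Npat (minus), chr7:122132981-122133040 between Palb2 and Dctn5 (minus), chr11:87404955-87405012 between Rad51c and Tex14 (minus) and chr7:79392251-79392311 between Rlbp1 and Fanci (plus).
Brca1: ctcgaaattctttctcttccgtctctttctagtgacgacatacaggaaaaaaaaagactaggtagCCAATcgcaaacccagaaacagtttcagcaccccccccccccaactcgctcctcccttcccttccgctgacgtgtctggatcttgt
Atm: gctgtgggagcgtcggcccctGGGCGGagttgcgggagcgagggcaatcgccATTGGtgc
Palb2: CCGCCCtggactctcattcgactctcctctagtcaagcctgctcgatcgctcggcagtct
Rad51c: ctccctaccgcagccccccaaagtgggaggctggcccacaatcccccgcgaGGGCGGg
Fanci: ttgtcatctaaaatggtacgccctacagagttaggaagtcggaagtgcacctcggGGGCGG
The gaps of Atm, Palb2, Rad51c and Fanci each held an SP1 box, and those of Brca1 and Atm a CCAAT box. Every gap was short against the 1 kb window used below.

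In the 300-base promoter windows of RefSeq (250 bases before each start and 50 from it on), 26 of the 30 genes had an entry, with 30 windows in all. Fancd2, Rad50, Nbn and Prkdc had no entry. Either E2F form was found in the windows of 14 genes: Fancb, Fancf, Fancg, Fancm, Fanci, Brca1, Brca2, Rad51c, Atm, Chek1, Chek2, Xrcc6, Lig1 and Msh6. E2F factors drive genes of S phase. By window this was 14 of 30, beside 8.69% of all 21263 windows of protein-coding genes and 12.7% of the 8203 windows with a summit within 1 kb of the start in all 3 lists. The NRF1 letters were in 6 windows (3.52% of all, 6.38% of those marked in all 3 lists), ETS in 14 (18.7% and 33.1%), SP1 boxes in 18 (46.2% and 65.5%) and CCAAT in 16 (38.2% and 37.7%). The TATA box was in 3 windows (12.6% and 5.73%), and the CHR letters in none (16.0% and 11.5%).

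The repair genes were marked in most cases. A summit lay inside or within 1 kb of the record in 28, 30 and 29 of the 30 genes in the 3 lists, where 58.2%, 73.7% and 62.1% of all protein-coding genes had one. The repair records are long, with a median of 41.4 kb against 17.2 kb for all genes, which leaves more room for a summit. In all 3 lists 28 genes had one (54.4% of all genes), and in equal-length lists 28, 29 and 27, with 26 in all 3 (58.2%, 60.7%, 57.8% and 51.1%). Within 1 kb of either end of the record (an end summit) the counts were 23, 28 and 22, beside 41.9%, 56.9% and 43.6% of all genes, and 21 genes had one in all 3 lists, beside 36.3%. In equal-length lists they were 23, 25 and 21, beside 41.9%, 45.5% and 40.5%, with 19 genes in all 3 (34.6%). Record ends are not always where transcription starts. With a summit within 1 kb of a listed start or a record end, a reading chosen after the data were seen, 26, 30 and 25 genes counted (46.2%, 61.5% and 47.9% of all genes), and 24 did so in all 3 lists (41.1%). In equal-length lists this reading gave 26, 28 and 24 genes (46.2%, 50.3% and 44.8%), and 22 in all 3 (39.3%).

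**Figure D1:**
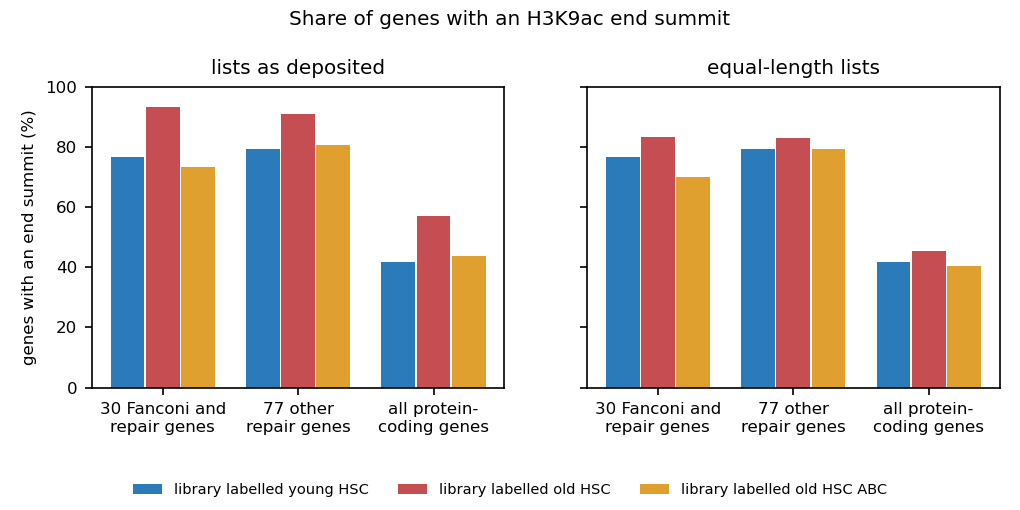
Share of genes with an end summit (vertical axis, %) among the 30 Fanconi and repair genes, 77 other repair genes and all 21887 protein-coding genes, with 1 bar per library, for lists as deposited and for equal-length lists. Both repair sets stand above all genes in each library, and the old-labelled bar is the tallest of each trio in both panels.

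Ranks describe only the repair genes that were marked, which are not all 30. The best end summit of the marked repair genes had a median rank 15.4% from the top of the young-labelled list, 6.01% from the top of the old-labelled list and 11.5% from the top of the ABC-labelled list. Over all marked genes the medians were 18.6%, 7.69% and 15.9%. Of the 23, 28 and 22 marked repair genes, 10, 22 and 10 had a summit in the top 10% of the list, where 29.8%, 58.6% and 35.1% of all marked genes did. Because the lists differ in length, a rank is a place inside a list and shows no change between lists.

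**Figure D2:**
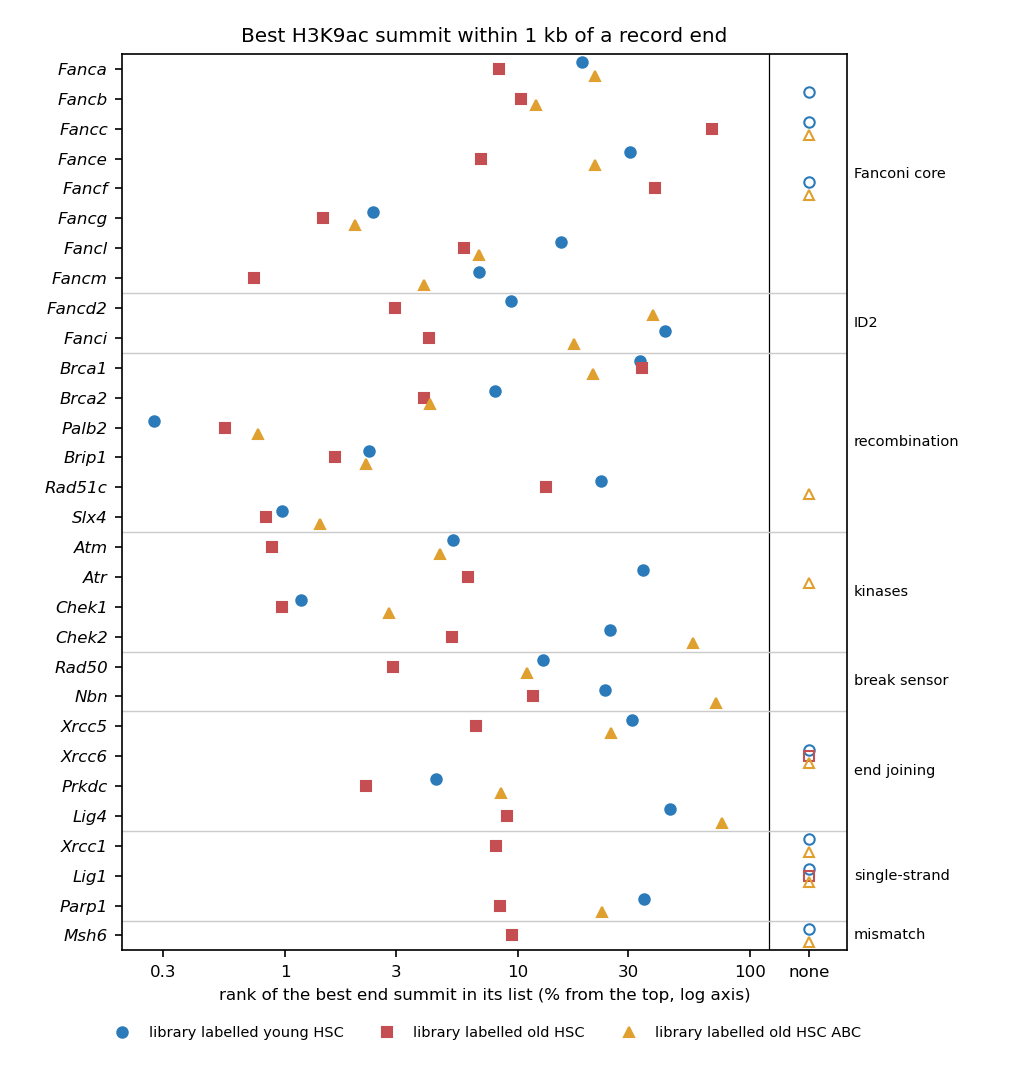
Rank of the best end summit of each of the 30 genes in its own list (horizontal log axis, % from the top, 0.3 being nearly the strongest), by repair pathway, with 1 symbol per library and open symbols where a list had no end summit. Palb2 lies furthest left in every list, and Xrcc6 and Lig1 have open symbols for every list.

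Counts by pathway are of few genes. Here and in the paragraphs that follow they stand beside end summits at 41.9%, 56.9% and 43.6% of all genes. In equal-length lists these shares were 41.9%, 45.5% and 40.5%. Of the 8 genes of the Fanconi core complex and its anchor, 5, 8 and 6 had an end summit in the 3 lists, and 5, 6 and 6 in equal-length lists. Fancg, a scaffold subunit of the core complex (chromosome 4, 43002337 to 43010567), was the best ranked of them in the young- and ABC-labelled lists, at 2.39%, 1.46% and 1.99% from the top, with summits 300, 297 and 221 bp into the gene. Fancl, the ubiquitin ligase subunit (chromosome 11, 26387084 to 26471883), had its summit 316, 316 and 318 bp past its start, at ranks of 15.4%, 5.87% and 6.82%. These positions lie within 2 bp of each other in the 3 lists. Fanca, a subunit of the core complex (chromosome 8, 123266294 to 123318651), had summits 222, 45 and 192 bp past its start at 18.96%, 8.30% and 21.6%. Fance, which links the core complex to FANCD2 (chromosome 17, 28313530 to 28326574), had them 18, 15 and 15 bp past its start at 30.4%, 6.94% and 21.5%, and the ABC-labelled list had a further summit at 657 bp.

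The remaining core genes differed between the lists or had their summits away from the listed start. Fancb (chromosome X, 164980480 to 164997272), the X-linked core subunit, had a summit 207 bp before its start in the old-labelled list (score 14.4, rank 10.3%) and 177 bp before it in the ABC-labelled list (10.1, 12.0%). Both were also at an end of Mospd2. In the young-labelled list the nearest summit lay 560587 bp from the record. Fancf (chromosome 7, 51860577 to 51862267), an adaptor subunit with the shortest record of the 30 genes at 1691 bp, had 3 end summits in the old-labelled list with scores of 2.28 to 4.98, none of which reached the equal-length list. Each of them was also at an end of Gas2. Elsewhere the closest summit was 143611 bp (young-labelled) or 138738 bp (ABC-labelled) away, so Fancf and Fancb were the genes of the set with no summit at or inside the record in at least 1 list.

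In Fancc and Fancm the record ends and the listed start lie apart. The record of Fancc, a core subunit (chromosome 13, 63301334 to 63497292), reaches 65547 bp beyond its listed start. All 3 lists had a summit near that start, at 699 bp past it in the young-labelled list, 651 bp past it in the old-labelled list and 546 bp past and 5 bp before it in the ABC-labelled list. Its end summit in the old-labelled list (score 3.17, rank 68.6%) lay at the other end, inside the record of Aopep. Fancm, the translocase that anchors the core complex (chromosome 12, 65074110 to 65131842), had a strong end summit in every list, at ranks of 6.81%, 0.736% and 3.96%. It lay 1909, 1910 and 1914 bp before the listed start of Fancm and within 1 kb of an end of Fkbp3. At the listed start itself Fancm had a summit in the old-labelled list alone, at 386 bp with a score of 3.96.

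Both genes of the FANCD2 and FANCI pair, the substrate of the core complex, had an end summit in all 3 lists. Fancd2 (chromosome 6, 113531640 to 113597020) had it at 113531432, 113531219 and 113531427, at ranks of 9.37%, 2.97% and 38.2%, and each of these positions was also at an end of Emc3. Fanci (chromosome 7, 79392312 to 79450266) had it at 79392276, 79392278 and 79392278, inside the 61 bases printed above, at ranks of 43.2%, 4.14% and 17.4%. The position was thus the same to within 2 bp in the 3 lists.

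All 6 genes of homologous recombination and the downstream Fanconi steps had an end summit in the young- and old-labelled lists, and 5 in the ABC-labelled list. Palb2, which joins BRCA1 to BRCA2 (chromosome 7, 122107262 to 122132980), was the best ranked of the 30 genes in every list, at 0.274%, 0.553% and 0.762%. Its summits lay 257 and 207 bp past the start in the young- and old-labelled lists and 64 bp before it in the ABC-labelled list, and all were at an end of Dctn5. Palb2 also had a weak summit at the far end of its record in each list, at 122108048, 122108205 and 122108055, with scores of 3.12, 3.08 and 5.64.

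Slx4, the scaffold for the crosslink-cutting nucleases (chromosome 16, 3979105 to 4003829), ranked next by its worst rank, at 0.974%, 0.833% and 1.41%. Its summits at 4003705, 4003706 and 4003681 lay within 1 kb of the record end but 2027, 2028 and 2003 bp before the listed start, and no list had a summit within 1 kb of that start. Brip1, the helicase partner of BRCA1 (chromosome 11, 86058136 to 86201215), had summits 173, 534 and 84 bp before its start, at 2.30%, 1.63% and 2.23%. Brca2, a mediator of homologous recombination (chromosome 5, 150522297 to 150570147), had them 251, 377 and 411 bp past its start, at 7.99%, 3.98% and 4.20%.

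Brca1 and Rad51c were the weaker genes of this group. Brca1, a ubiquitin ligase that directs breaks to recombination (chromosome 11, 101488761 to 101551955), had its best end summits 960 bp before the start in the young-labelled list (score 6.20, rank 33.6%) and 802 bp before it in the ABC-labelled list (7.06, 21.1%), both at an end of Nbr1. The old-labelled list had a stronger summit at 101553002 (29.5, rank 4.27%), which is 1047 bp before the start and so fell just outside the window, and within it only weaker ones (best score 5.43). Rad51c, a recombination gene (chromosome 11, 87376645 to 87404954), had summits 119 and 30 bp past a listed start in the young- and old-labelled lists (8.50 and 11.3, ranks 22.9% and 13.3%), both also at an end of Tex14. The nearest ABC-labelled summit to its ends was 4863 bp away, and its record held 1 weak summit there (score 1.79).

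The 4 damage kinase genes all had an end summit in the young- and old-labelled lists and 3 of them in the ABC-labelled list. Chek1, the effector kinase downstream of ATR (chromosome 9, 36708482 to 36726658), had its summit at 36726692, 36726692 and 36726691, which is 34, 34 and 33 bp before its start, at ranks of 1.17%, 0.975% and 2.80%. The 3 positions were thus within 1 bp of each other. Atm, the kinase activated by double-strand breaks (chromosome 9, 53437122 to 53536828), had summits 619, 698 and 701 bp before its start at 5.30%, 0.882% and 4.66%, on the side of Npat, past the 60 bases printed above. Chek2, the effector kinase downstream of ATM (chromosome 5, 110839800 to 110874140), had summits 106, 140 and 34 bp past its start, at 24.9%, 5.22% and 56.8%. Each of these was also at an end of Hscb. The ABC-labelled list also had a Chek2 summit of nearly the same score at the far end of the record.

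Atr, the kinase activated by stalled replication forks (chromosome 9, 95857597 to 95953217), had end summits at 185 and 737 bp past its start in the young-labelled list (scores 2.04 and 6.02) and at 603 bp in the old-labelled list (22.9, rank 6.14%). In the ABC-labelled list no summit lay within 1 kb of an end, and the nearest to the start was 4526 bp away. The record of Atr still held 2 ABC-labelled summits. The summits of the other lists were also at an end of 1700065D16Rik, whose listed start is 80 bp from that of Atr.

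Rad50 and Nbn, subunits of the complex that senses broken ends, had an end summit in all 3 lists. For Rad50 (chromosome 11, 53649519 to 53707319) these were at 53707247, 53707073 and 53707076, at 12.9%, 2.90% and 11.0%. For Nbn (chromosome 4, 15957587 to 15992589) they were at 15958380, 15958327 and 15958331, at 23.7%, 11.6% and 71.3%. The ABC-labelled Nbn summit was weak (score 2.93).

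Of the 4 genes of non-homologous end joining, 3 had an end summit in each list, and 2 in the ABC-labelled equal-length list. Prkdc, the DNA-dependent kinase that aligns broken ends (chromosome 16, 15637444 to 15842239), has the longest record of the set at 204796 bp and had its best end summits at 15637119, 15637810 and 15637915, at 4.45%, 2.24% and 8.45%. The old- and ABC-labelled positions lie 691 and 796 bp from the young-labelled one, and all 3 were at an end of Mcm4, a subunit of the replicative helicase. Xrcc5, which encodes the Ku80 subunit of the end-binding Ku ring (chromosome 1, 72307417 to 72394953), had summits 14 bp past, 67 bp before and 10 bp past its start, at 30.9%, 6.63% and 25.3%.

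Xrcc6, which encodes the partner subunit Ku70 (chromosome 15, 81987833 to 82040085), had no end summit in any list, and its listed start at 82016369 lies deep inside the record. Near that start the young-labelled list had summits 941 bp before and 220 bp past it, the old-labelled list 1 at 334 bp past it (score 22.8, rank 6.17%) and the ABC-labelled list 2, at 790 and 180 bp before it. Lig4, the ligase of end joining (chromosome 8, 9970020 to 9977680), had its best summits 789, 909 and 848 bp before its start, at 45.1%, 9.01% and 75.4%, each also at an end of Abhd13. With a score of 2.73 the ABC-labelled Lig4 summit was left out of the equal-length list.

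Of the 3 genes of single-strand break and base excision repair, 1, 2 and 1 had an end summit. This is near the shares over all genes (41.9%, 56.9% and 43.6%). Within 1 kb of a listed start 2, 3 and 2 had a summit, beside 45.5%, 57.9% and 46.3% of genes with an entry. Parp1, the sensor of single-strand breaks (chromosome 1, 180568891 to 180600999), had its best summits far into the window, 863, 995 and 995 bp past the start, at 34.8%, 8.40% and 23.2%. The ABC-labelled list also had a Parp1 summit 441 bp from the start. Lig1, the replicative DNA ligase (chromosome 7, 13277175 to 13311426), has 3 listed starts and had no end summit in any list. A single summit stood near its inner starts in each list, at 13278345, 13278699 and 13278732 (scores 5.51, 27.4 and 9.95), each also at an end of Zswim9.

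Xrcc1, the scaffold of single-strand break repair (chromosome 7, 24546699 to 24573438), had its only end summit in the old-labelled list, 447 bp past its start (18.1, rank 8.09%) and also at an end of Pinlyp. The nearest ABC-labelled summit was 2096 bp past the start and the nearest young-labelled one 4891 bp before it. Msh6, a mismatch recognition subunit and the 1 mismatch repair gene of the set (chromosome 17, 87975050 to 87990892), also had one there alone, 825 bp past its start (15.8, rank 9.43%). The young- and ABC-labelled summits nearest to the start were 1265 and 1284 bp past it (scores 9.10 and 3.84), so for Msh6 all 3 lists had a summit in the same region and the 1 kb window separated them.

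**Figure D3:**
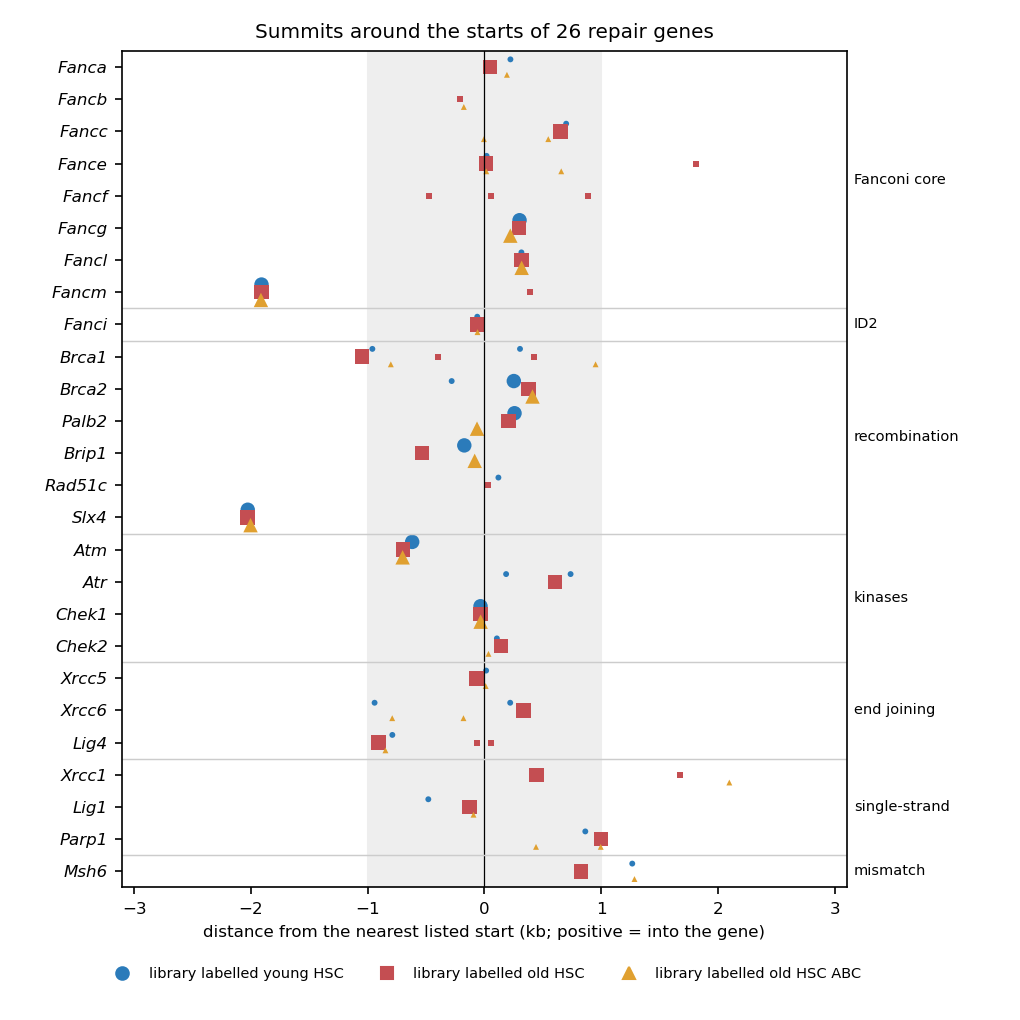
Distance of each summit from the nearest listed start (horizontal axis, kb, positive into the gene) for the 26 genes with a RefSeq promoter entry, with 1 symbol per library, large where the summit is in the top 10% of its list. The grey band is the 1 kb window. Fancm and Slx4 have their strong summits about 2 kb before the start, and the young- and ABC-labelled summits of Msh6 fall just right of the band.

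Within 1 kb of a listed start, 20, 25 and 19 of the 26 genes had a summit, beside 45.5%, 57.9% and 46.3% of the 17492 genes with an entry, and 18 had one in all 3 lists, beside 40.6%. The best of these lay past the start in 13 of 20, 17 of 25 and 9 of 19 genes, where 71.0%, 68.5% and 69.3% of all marked starts did. The median distance was 112.5, 140 and -33 bp from the start, against 202, 157 and 170 bp for all marked genes. Between lists the best end summits of a gene were a median of 81 bp apart for the young- and old-labelled lists (23 genes), 59 bp for the young- and ABC-labelled lists (21 genes) and 32 bp for the old- and ABC-labelled lists (22 genes). They were within 10 bp in 7, 7 and 9 genes and over 1 kb apart in 1, 1 and 2, the genes Brca1 and Chek2.

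A shared promoter was common in this set. Of the 26 genes, 11 had the listed start of another protein-coding gene on the opposite strand within 1 kb: Fancb (Mospd2), Fancf (Gas2), Brca1 (Nbr1), Palb2 (Dctn5), Rad51c (Tex14), Atm (Npat), Atr (1700065D16Rik), Xrcc6 (Desi1), Lig4 (Abhd13), Xrcc1 (Pinlyp) and Lig1 (Zswim9). Over all genes with an entry the share was 9.61%. The starts were 37 bp apart for Lig4, 80 for Atr, 95 for Palb2 and 152 for Brca1, and 694 bp apart for Xrcc1. By record ends, the best end summit of 11 of 23, 14 of 28 and 9 of 22 marked repair genes in the 3 lists was also within 1 kb of an end of another gene, beside 25.5%, 22.6% and 24.9% of all marked genes. With only summits that touch no other gene, 13, 14 and 15 of the 30 genes had an end summit, beside 30.6%, 44% and 32.2% of all genes.

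Away from the ends, the repair records held 41, 180 and 70 summits in the 3 lists, or 25.2, 111 and 43.0 per Mb of record. All genes had 16.5, 62.4 and 24.1 per Mb, and the 7950 genes with an end summit in all 3 lists had 23.3, 86.8 and 34.2. Of the 41 young-labelled summits inside repair records, 15 had a summit of both other lists within 500 bp, a share of 36.6% beside 44.5% over all genes. They fell in 11 genes, and those of Fancc, Xrcc6 and Lig1 nearest to a listed start were within 1 kb of it.

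The inner position of Chek2, 23840 bp past its start, was the strongest of these in the young-labelled list. It stood at 110863823, 110863774 and 110863760, with scores of 9.82, 10.3 and 4.45. In the young- and ABC-labelled lists this was above the score of the Chek2 summit at the start (7.89 and 3.60), and in the old-labelled list below it (25.9). Fancc had an inner summit at exactly 63348100 in all 3 lists (5.52, 9.03 and 4.21), 83645 bp past its start. Xrcc1, whose start was marked in the old-labelled list alone, had an inner summit at 24559503, 24559505 and 24559522 (1.96, 6.22 and 4.12).

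Rad50 had 2 shared inner positions, the stronger at 53663459, 53663462 and 53663565 (7.46, 13.7 and 5.48). Fanca also had 2, 20.4 and 37.6 kb past its start. Atm had 1 at 75.5 kb, Fanci 1 at 5.6 kb, Brca1 1 at 7.9 kb and Xrcc6 1 at 6.1 kb. Atr had 1 at 86.1 kb (2.74, 4.47 and 6.47), and the old- and ABC-labelled lists also shared the base 95886154, 28557 bp past its start. An inner position of Brip1, at 86117168 and 86117144, was found in the young- and old-labelled lists (7.79 and 8.25) and had no ABC-labelled summit within 500 bp.

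**Figure D4:**
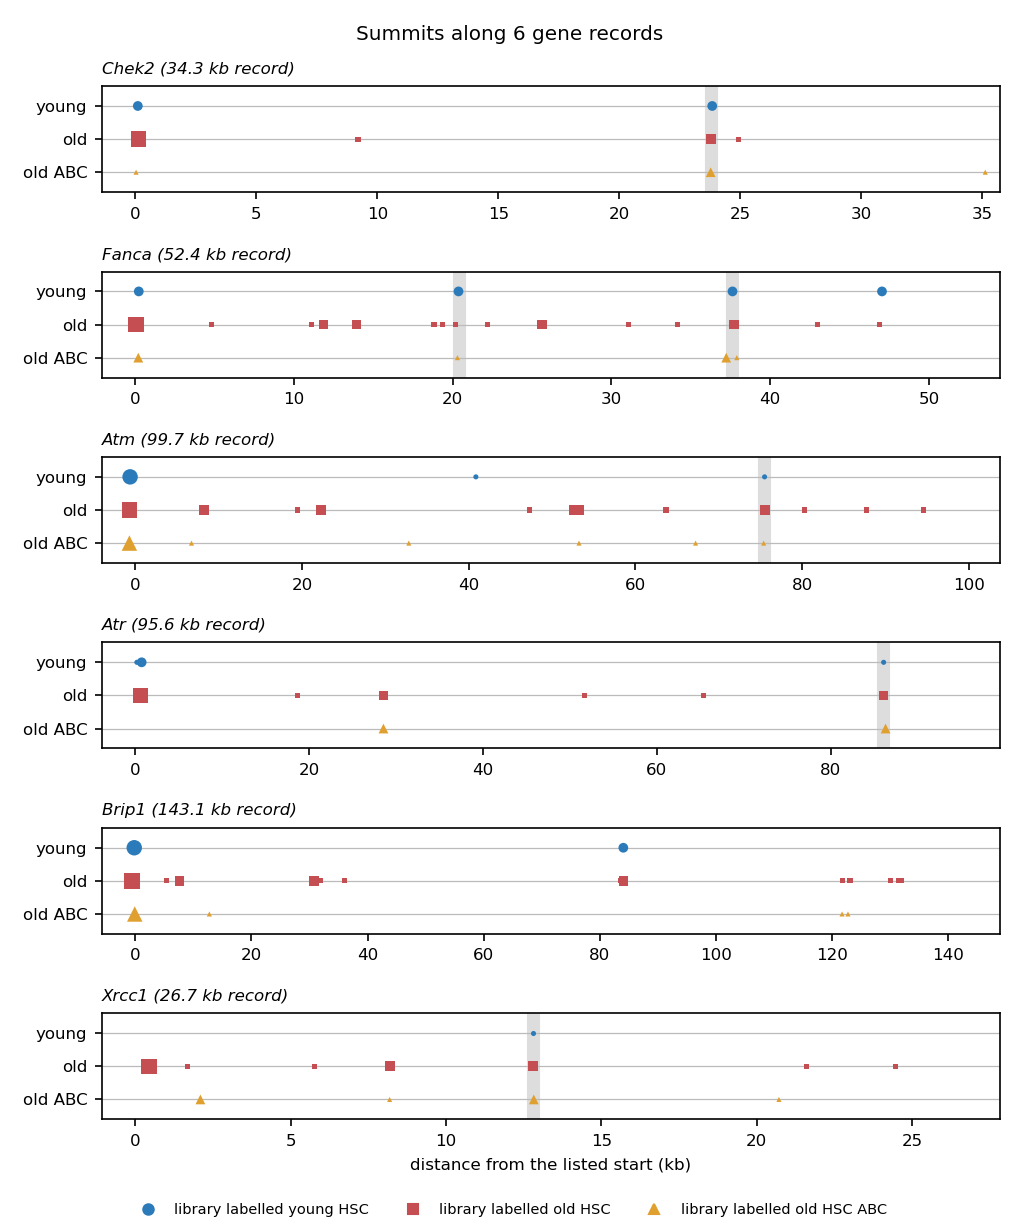
Summits along the records of Chek2, Fanca, Atm, Atr, Brip1 and Xrcc1 (horizontal axis, kb from the listed start), with 1 row per library. Large symbols are in the top 10% of their list, middle ones in the top 50% and small ones below, and grey bars mark inner positions found in all 3 lists within 500 bp. Fanca, Atm and Brip1 have their best ranked summit at the start in every row, and Chek2 has its shared inner position 23.8 kb from the start.

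Age was compared through the old- and young-labelled lists, although by the peak names no list is a young one. The old-labelled list marked 5 genes that the young-labelled list did not, Fancb, Fancc, Fancf, Xrcc1 and Msh6, and none had the reverse. Over all genes these shares were 16.6% and 1.59%, so 5 of 30 is about the background. In the same lists 8 and 5 of the 8 neutrophil and monocyte genes had an end summit, and their part in these counts was not tested. Fancc counted as a difference only through its weak far-end summit (score 3.17), while all 3 lists had a summit within 1 kb of its listed start. The old-labelled end summits of Fancb, Fancf and Xrcc1 were also at an end of Mospd2, Gas2 and Pinlyp, so they cannot be given to 1 gene. Equal-length lists gave 3 genes, Fancb, Xrcc1 and Msh6, against 1, Brca1 (6.9% and 3.28% of all genes). Of these, Fancb had no young-labelled summit near it, Msh6 had one just outside the window, and Brca1 had its strong old-labelled summit 1047 bp from the record.

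Old HSC ABC was then set against old HSC. The old-labelled list had 6 genes that the ABC-labelled list lacked, Fancc, Fancf, Rad51c, Atr, Xrcc1 and Msh6, and none went the other way (15.6% and 2.23% of all genes). Fancc again counted only through its far-end summit. The old-labelled end summits of Fancf, Rad51c, Atr and Xrcc1 were each also at an end of another gene. In equal-length lists the 5 were Rad51c, Atr, Lig4, Xrcc1 and Msh6, and Brca1 went the other way (8.22% and 3.2%). When a gene counted as absent only with nothing within 5 kb of an end, 2 genes were left, beside 8.32% of all genes. Between the ABC- and young-labelled lists, Fancb was marked in the ABC-labelled list alone (6.43%), and Rad51c and Atr in the young-labelled list alone (4.78%). In equal-length lists Fancb again stood on one side (4.7%) and Rad51c, Atr and Lig4 on the other (6.09%). These comparisons share libraries, so they are not independent of each other.

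With a summit at a start or a record end counted as marked, the old-labelled list had 4 genes that the young-labelled list lacked (16.3%) and 5 that the ABC-labelled list lacked (15.3%), with 0 of the reverse in both (1.12% and 1.69%). The ABC-labelled list had 1 that the young-labelled list lacked (6.24%), and the young-labelled list 2 of the reverse (4.6%). In equal-length lists the counts were 3 against 1 for old- and young-labelled (6.94% and 2.87%), 5 against 1 for old- and ABC-labelled (8.27% and 2.8%) and 1 against 3 for ABC- and young-labelled (4.53% and 5.94%).

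Among 77 other genes of repair and aldehyde clearance, listed from textbook knowledge, 61, 70 and 62 had an end summit in the 3 lists. Over all genes the shares were 41.9%, 56.9% and 43.6%. In equal-length lists the counts were 61, 64 and 61, beside 41.9%, 45.5% and 40.5% of all genes. Partners of the Fanconi proteins were marked in 8, 9 and 8 of 11 cases, recombination genes in 15, 15 and 15 of 17, damage signalling genes in 9, 11 and 9 of 11 and end joining genes in 4, 5 and 3 of 6. Base excision and single-strand break genes stood at 10, 12 and 10 of 12, mismatch repair genes at 5, 6 and 6 of 6 and nucleotide excision genes at 9, 10 and 10 of 12. Aldehyde clearance, which removes a source of crosslinks, stood at 1, 2 and 1 of 2. The counts by pathway are of few genes and stand beside the same 41.9%, 56.9% and 43.6% of all genes. The ABC-labelled 3 of 6 for end joining and 1 of 2 for aldehyde clearance are near that share.

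In the old- but not the young-labelled list 9 of these genes were marked (11.7%, beside 16.6% of all genes), and 5 in equal-length lists (6.49%, beside 6.9%), so the counts are at or below the background. They included Ercc4, the XPF nuclease of crosslink and excision repair (score 70.1), and Pms2 of mismatch repair (15.0). The end joining polymerase gene Poll (13.9) was also among them. The reverse held for 0 of the 77 genes, beside 1.59% of all genes, and for 2 in equal-length lists, beside 3.28%. For Ercc4 a young-labelled summit lay 1138 bp from an end, for Pms2 and Poll the nearest were 5447 and 16223 bp away. The old-labelled list had 9 that the ABC-labelled list lacked (11.7%, beside 15.6% of all genes), and 4 in equal-length lists (5.19%, beside 8.22%). Among them were Poll, the related polymerase gene Polm (12.8) and Cenpx (12.2). In the lists as deposited 1 gene went the other way, beside 2.23% of all genes. It was Rbbp8 (2.68), which was named after its value was seen and had no end summit in any equal-length list. In equal-length lists 1 gene went this way too, beside 3.2% of all genes, but it was Ung. ABC-labelled but not young-labelled were 4 (5.19%, beside 6.43% of all genes), among them Ercc4 (32.3), Pms2 (7.32) and the uracil glycosylase gene Ung (3.83), and the 3 of the reverse (3.90%, beside 4.78%) included Polm (2.81) and the nuclease gene Mus81 (2.67).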

How the data were processed

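Summits of H3K9ac CUT&Tag from 3 libraries, 1 per group, were analysed. The submitters' processing notes name mm10, MACS2, BWA, edgeR and Picard. Roles, versions, settings and any control: not given in the sources used here. The deposited score is read as the −log10 q-value of MACS2, since each list starts just above 1.30, and was used to rank and, in alternatives, filter summits inside their list. Peaks were taken as called per library. Groups follow the titles. Ages come from the labels' protocol and the letter that opens each title.

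Gene records, starts and promoter bases came from RefSeq tables of GRCm38.p6, which has the coordinates of mm10. A gene was marked if a summit lay within 1 kb of an end of its record. The 17492 genes with a promoter entry also gave starts. Inner summits counted as shared within 500 bp. Exons and UTRs were not analysed here. Replicates were lacking, so no test was possible, and the functions were tested on simulated data. Python 3.11.15, pandas 2.3.3 and numpy 2.4.6 were used.

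The 30 genes and all lists were chosen with earlier results of these data known. All 30 are named. Of the other repair genes, up to 3 per comparison and direction are named by score among those that differed under both list lengths, and neighbours are named where they share a summit. Between the ABC- and old-labelled lists Rbbp8 and Ung each differed under 1 list length only, and they are named there outside this rule. One result under this rule is not reported here. Alternatives were scores of at least 5 or 10, equal-length lists, windows of 500 bp or 2 kb, starts in place of ends, summits at no other gene, absence within 5 kb, merging within 500 bp, and, added after the data were seen, starts or ends.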

Additional observations from a re-analysis of the deposited data

How the results depend on the processing

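Of 120 alternative values for the counts and median ranks, 93 stayed within 1.5 times the value reported and 27 did not; a list of summits has no replicate, so this range is a description. A score depends on the unknown depth of its library, so the same minimum is not equally strict in each list and counts under it are no difference between lists. Shares over all genes were not computed for the score minimums, the windows of 500 bp and 2 kb, or the differences with summits at no other gene. Counts under these cannot be set against a background. For absence within 5 kb the share was computed only for old-labelled against ABC-labelled lists (8.32%). A score of at least 10 left 12 marked genes in the young-labelled and 12 in the ABC-labelled list, and 13 on the old-labelled side of each comparison with these. With summits at no other gene 13 and 14 were marked in the young- and old-labelled lists, and the genes of old-labelled against young-labelled, old-labelled against ABC-labelled, ABC-labelled against old-labelled, ABC-labelled against young-labelled and young-labelled against ABC-labelled lists numbered 1, 1, 2, 2 and 0. Equal-length lists gave 3 old-labelled against 1 young-labelled genes, and 1 ABC-labelled gene absent from the old-labelled list. Ends within 500 bp gave 3 young-labelled and 3 ABC-labelled genes absent from the old-labelled list, 3 ABC-labelled absent from the young-labelled and 4 of the reverse, which within 2 kb were 1. A score of at least 5 gave 2 ABC-labelled genes absent from the young-labelled list and 5 of the reverse, and a score of at least 10 gave 1 of the reverse. With absence within 5 kb there were 3 genes of old-labelled against young-labelled, 2 of old-labelled against ABC-labelled and 0 of young-labelled against ABC-labelled lists. The median rank of the old-labelled list was 17.1% in equal-length lists, by construction since the list is shorter, and that of the ABC-labelled list was 21.1% with the best summit anywhere in the record. Unless stated, the cause was not tested. No paired analysis was possible because each group has 1 library. Depth is unknown and limits what an absent summit can show.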
